A study of Mus musculus with 6 samples.

Results

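The genes of the mitochondrial ribosome were followed in mouse hearts under pressure overload, with and without miR-27b. They are the 78 genes, of 17570 with values, whose Entrez Gene ID carries a mouse symbol that starts with Mrpl or Mrps followed by a number, and they were taken as 49 genes named for the large subunit and 29 named for the small subunit. All 78 are listed as protein coding in RefSeq. RNA of the heart was sequenced 8 weeks after transverse aortic constriction (TAC), an operation that narrows the aorta and loads the left ventricle, in 3 WT mice (WT/TAC) and 3 miR-27b-null mice (KO/TAC). The study names C57Bl/6J for the mice of both groups, operated at 10 to 12 weeks of age. Its null line was made in C57BL/6 eggs, with no substrain named. The labels carry no other allele or agent for either group. The KO/TAC mice lack 10 bases of miR-27b-3p in every tissue, removed with TALEN nucleases, so cells other than cardiomyocytes are null too. All 6 libraries come from operated mice and no sham library was analysed here, so every comparison is between genotypes under load. The libraries also differ in atrial and ventricular markers, as set out below. The labels number the hearts within each group and say no more of separate litters or batches, so p-values measure the spread between these libraries only.

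Mitochondria keep a small genome of their own, and the few proteins it encodes are core subunits of the respiratory chain, which the beating heart uses for nearly all of its ATP. These proteins are made on a ribosome inside the organelle, whose RNA comes from mitochondrial DNA while all of its proteins are encoded in the nucleus, made in the cytosol and imported. Some of the proteins descend from the ribosome of the bacterial ancestor and others were added later in evolution, and inherited defects in several of them cause cardiomyopathy in humans.

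The deleted miRNA is shown here because its seed is the sequence that sites in target mRNAs pair with. Capitals mark the seed, bases 2 to 8 of the 21 bases of the mature strand, which RefSeq places on the plus strand at chr13:63300760-63300780 (GRCm38.p6).
miR-27b-3p: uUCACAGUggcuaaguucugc

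Values were FPKM, fragments per kilobase of transcript scaled to the size of the library, which can be compared between genes because they are per length. Read totals were not used here, and no counting interval is given. The even steps between the lowest values put depth at about 15000000 to 15700000 fragments per WT/TAC library and 13000000 to 13200000 per KO/TAC library. Cardiomyocyte markers were present in every library, but WT/TAC replicate 1 stood apart. Its atrial light chain Myl7 was at 8140 FPKM and its ventricular light chain Myl2 at 81.0, while Myl2 was at least 9735 FPKM in the other libraries. Myl7 was at 1135 FPKM in WT/TAC replicate 3, at 333 in KO/TAC replicate 2 and below 1 in the remaining 3 libraries. For the counts and medians of the members, and for most of the other gene lists, values without this library are given below.

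The genes of the mitochondrial ribosome were expressed over a wide range in every heart. All 78 passed the filter of a mean of at least 0.5 FPKM that 12520 genes passed. The mean level over 6 libraries ran from 7.36 to 358 FPKM in the large subunit, a 48.6-fold range with a median of 53.0, and from 9.62 to 198 FPKM in the small subunit, a 20.6-fold range with a median of 49.1, although an assembled ribosome holds 1 copy of most of these proteins. The highest in the large subunit were Mrpl42, one of the proteins added in mitochondria, Mrpl30, and Mrpl12, the stalk protein that recruits elongation factors. Mrpl42 was at 355, 337 and 232 FPKM in replicates 1, 2 and 3 of WT/TAC and at 416, 327 and 481 FPKM in those of KO/TAC. Mrpl12 was at 192, 223 and 221 FPKM in WT/TAC and 228, 222 and 218 FPKM in KO/TAC. The groups overlapped in both genes, and only Mrpl42 varied widely. The lowest were Mrpl17, at 6.68 to 7.82 FPKM over the 6 libraries, and Mrpl19. In the small subunit Mrps21, Mrps23 and Mrps36 were highest and Mrps25, at 8.37 to 11.1 FPKM, and Mrps22 lowest. Mrps21 was at 182, 181 and 187 FPKM in WT/TAC and 194, 214 and 233 FPKM in KO/TAC, with every KO/TAC heart above every WT/TAC heart, but it did not pass the thresholds set out next (log2 fold change 0.21 ± 0.11, SE).

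**Figure D1:**
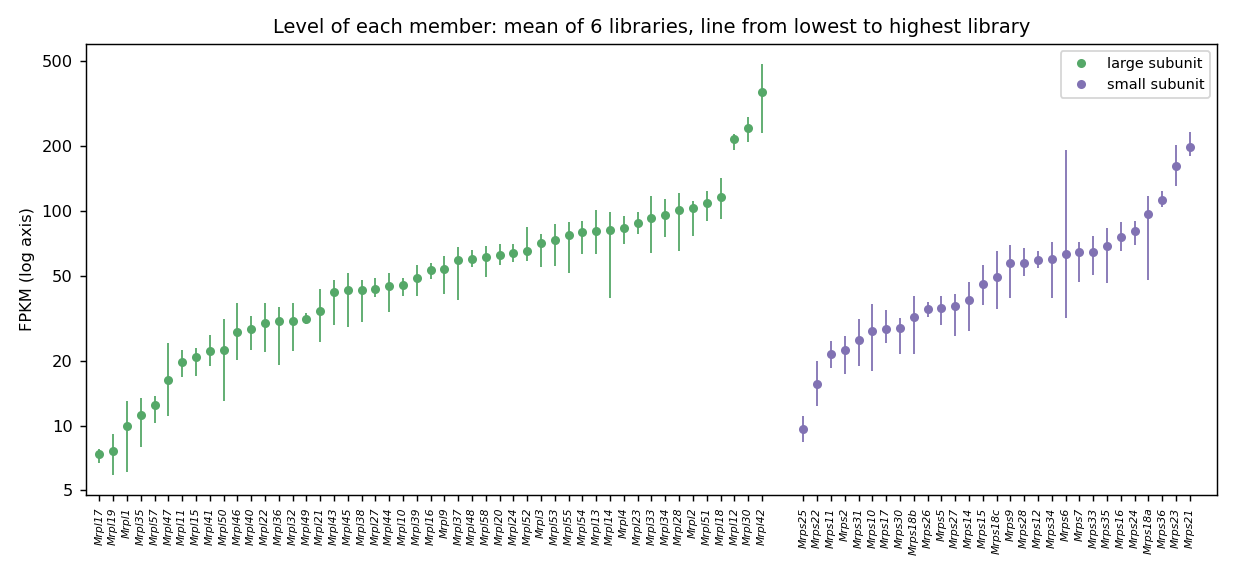
Level of each of the 78 genes in FPKM on a log axis, with the point at the mean of 6 libraries and the line from the lowest to the highest library, genes of the large subunit to the left and of the small subunit to the right. Most genes lie between 20 and 100 FPKM, and the long line of Mrps6 reaches 193 FPKM through 1 library.

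Transcripts of the mitochondrial ribosome were more abundant in KO/TAC hearts than in WT/TAC hearts in 16 of the 78 genes, and 0 were less abundant. A gene was called higher or lower at the study's thresholds, an unadjusted p under 0.05 and a fold of at least 1.2, here from limma on log2(FPKM + 0.5). The study's methods name P under 0.05 and no fold limit, and the folds in its list of differing genes begin just above 1.2. Of the large subunit 11 of 49 genes (22.4%) rose and of the small subunit 5 of 29 (17.2%), where 4.94% of all tested genes were higher. Among all tested genes 6.14% were lower. The median log2 fold change was 0.25 in the large and 0.23 in the small subunit, against -0.01 over all tested genes, and 74 of 78 genes had a positive value, where 49.2% of all tested genes did. Every KO/TAC heart was above every WT/TAC heart in 17 genes of the large and 9 of the small subunit, 26 of 78 or 33.3%, against 8.46% of all tested genes. In 0 members was every KO/TAC heart below every WT/TAC heart, which held for 9.79% of all tested genes. Without WT/TAC replicate 1 the groups were apart, in either direction, in 27 of the 78 genes, against 33.5% of all tested genes. No member passed an adjusted p of 0.05 by limma, which 0.016% of all tested genes did, and the lowest adjusted p was 0.263 for Mrpl45. At an unadjusted p under 0.05 by limma there were 17 members, all higher in KO/TAC. Of the 12520 tested genes 1402 were under that limit, in either direction. A 2-sample test without moderation gave 15 members, all higher in KO/TAC, and its adjusted count was also 0. The genes vary together between hearts, so these counts are not independent. In RNA of heart tissue, more cells of a type and more RNA per cell cannot be told apart. The labels do not give the part of the heart taken, and atrial and ventricular markers differed between libraries.

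**Figure D2:**
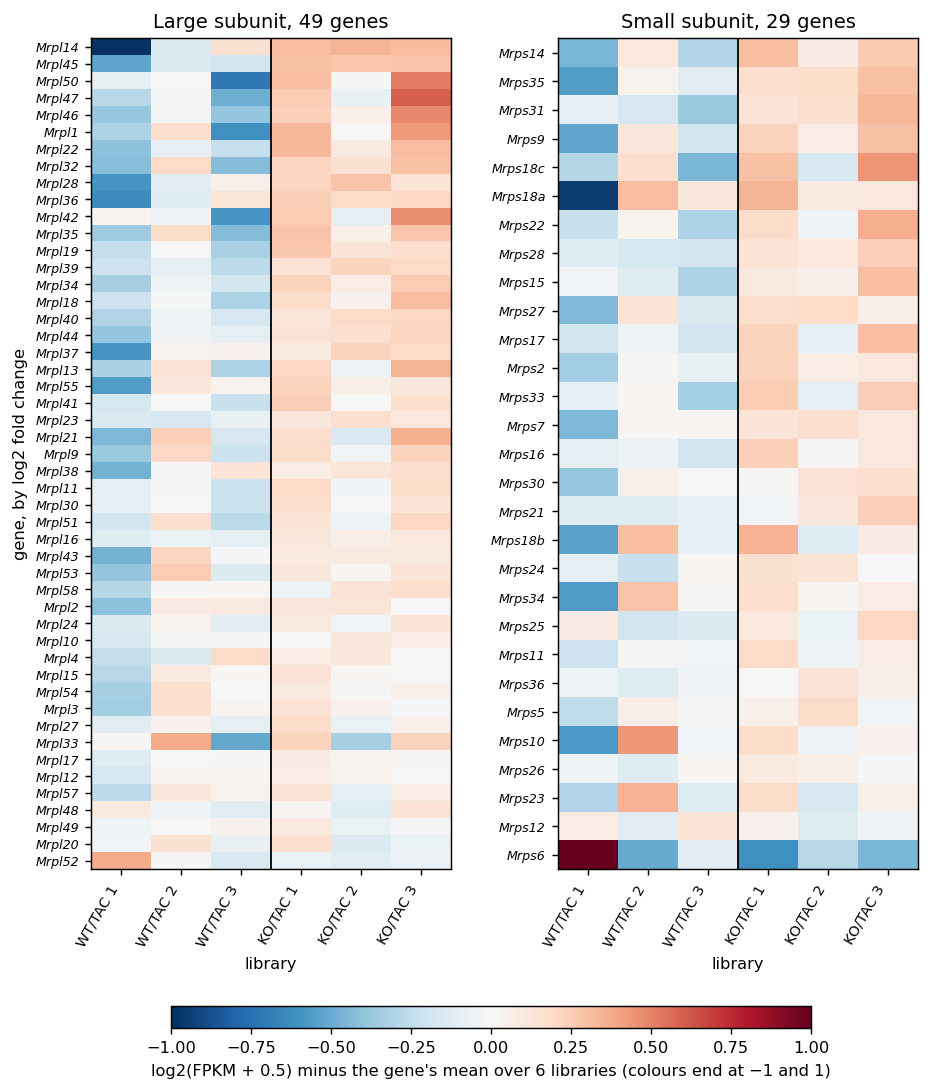
Deviation of log2(FPKM + 0.5) from the gene's own mean over 6 libraries, for each gene (rows, ordered by log2 fold change from high to low) and library (columns, WT/TAC left and KO/TAC right of the line), with red above and blue below the mean. WT/TAC replicate 1 is blue in most rows, KO/TAC replicates 1 and 3 are red in most, and Mrps6 at the bottom right runs the other way, high in WT/TAC replicate 1.

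Mrpl45, Mrpl39 and Mrpl22 of the large subunit rose in all 6 fits that each left out a library. Mrpl45 (Entrez Gene 67036), which sits at the exit of the peptide tunnel and ties the ribosome to the inner membrane, was at 28.8, 38.0 and 36.8 FPKM in replicates 1, 2 and 3 of WT/TAC and at 51.2, 50.8 and 51.05 FPKM in those of KO/TAC. The KO/TAC hearts were nearly level with each other and far above every WT/TAC heart. Its mean rose from 34.5 ± 4.99 to 51.0 ± 0.211 FPKM (SD, n = 3), or by 0.57 ± 0.13 (SE) on the log2 scale (limma, adjusted p = 0.263), and it was 0.44 to 0.64 with a library left out. Mrpl39 (Entrez Gene 27393), an added protein related to threonyl-tRNA synthetase, was at 41.6, 45.0 and 40.2 FPKM in WT/TAC and 53.2, 56.2 and 55.3 FPKM in KO/TAC. The 3 hearts of each group lay close together with a clear gap between the groups, and the means were 42.2 ± 2.49 and 54.9 ± 1.51 FPKM (log2 fold change 0.38 ± 0.10, SE). Mrpl22, a bacterial homologue whose loop lines the peptide tunnel, was at 22.1, 27.9 and 25.2 FPKM in WT/TAC and 37.3, 31.6 and 36.8 FPKM in KO/TAC. Its groups did not overlap, with WT/TAC replicate 1 lowest, and its mean rose from 25.1 ± 2.88 to 35.2 ± 3.15 FPKM (log2 fold change 0.49 ± 0.13, SE).

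The promoters of Mrpl22 and Mrpl39 hold the letters of the NRF1 core, and that of Mrpl22 also those of the ETS core, which GABP binds. NRF1 and GABP are factors known for driving nuclear genes of mitochondria, so the windows are shown here for the members that rose, with the match in capitals, written in the direction of the gene with 30 bases each (RefSeq, GRCm38.p6). They lie at chr11:58171620-58171649 and chr11:58171600-58171629 (plus strand) for Mrpl22, at chr16:84735351-84735380 (minus strand) for Mrpl39, at chr8:71464878-71464907 (plus strand) for Mrpl34 and at chr17:12916312-12916341 (minus strand) for Mrpl18.
Mrpl22 NRF1 core: ggcctcggactGCGCATGCgtatagtcagc
Mrpl22 ETS core: cttttccggtcCCGGAAGccggcctcggac
Mrpl39 NRF1 core: caaggagaggcGCGCATGCgcccccgcgtg
Mrpl34 ETS core: aactacagctcCCGGAAGgccccgcggcaa
Mrpl18 ETS core: actgaaaacgCCGGAAGtagggggctgcgg

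The 300-base windows searched ran from 250 bases before to 50 bases after the start site, on both strands, and 69 of the 78 members had one. The match of Mrpl22 to the NRF1 core lay 33 bases before the start site. The NRF1 core, GCGCATGC, was in 8 members (11.6%), against 5.82% of tested genes, and the ETS core, CCGGAAG, in 26 (37.7%), against 19.7%. The core of YY1, AAGATGG, was in 13 (18.8%), against 8.28%. Any of the 3 was in 38 members (55.1%) and in 30.2% of tested genes. The NRF1 core can overlap itself on the other strand, and in Mrpl39 it matches on both strands over shared bases. Among the 13 members that rose and have a promoter there, 4 (30.8%) held any of the 3, and among the other members 34 of 56 (60.7%) did. By motif, the NRF1 core was in 2 of the 13 (15.4%) and 6 of the 56 (10.7%), the ETS core in 3 (23.1%) and 23 (41.1%), and the YY1 core in 0 and 13 (23.2%). These shares were not tested, and a match describes the sequence, not binding. The genes for the factors, named for their motifs, had values in both groups that did not pass the thresholds. Nrf1 was at 4.75 ± 0.375 FPKM in WT/TAC and 4.22 ± 0.300 FPKM in KO/TAC, Gabpa at 7.01 ± 2.39 and 8.04 ± 1.42, and Yy1 at 17.7 ± 0.945 and 16.0 ± 0.232 FPKM (SD, n = 3).

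The other large subunit genes that rose lost the call when 1 or more libraries were left out. Mrpl46, Mrpl40 and Mrpl18, all of the central protuberance at the top of the subunit, had log2 fold changes of 0.51, 0.34 and 0.36. Mrpl46 was at 20.4, 26.4 and 20.3 FPKM in WT/TAC and 31.5, 27.7 and 37.3 FPKM in KO/TAC. Mrpl40 was at 22.6, 26.9 and 24.9 FPKM in WT/TAC and 30.3, 32.0 and 32.3 FPKM in KO/TAC, and Mrpl18 was the most abundant of the genes that rose, at 99.1, 113 and 91.7 FPKM in WT/TAC and 130, 118 and 142 FPKM in KO/TAC. The groups did not overlap in any of the 3, and WT/TAC replicate 2 was the highest WT/TAC heart each time. Mrpl46 did not pass when KO/TAC replicate 3 (0.40) or WT/TAC replicate 3 (0.45) was left out, nor Mrpl40 when it was KO/TAC replicate 2 (0.34) or 3 (0.33), nor Mrpl18 when it was KO/TAC replicate 1 (0.35) or 3 (0.29) or WT/TAC replicate 3 (0.29).
Mrpl44, an RNase III-like protein whose defects cause infantile cardiomyopathy in humans, was at 33.8, 43.2 and 41.5 FPKM in WT/TAC and 48.9, 49.5 and 51.6 FPKM in KO/TAC. Its groups did not overlap, and its log2 fold change of 0.35 was 0.24 without WT/TAC replicate 1, where it no longer passed, nor did it without any single KO/TAC heart (0.32 to 0.36). The bacterial homologues Mrpl34, Mrpl19 and Mrpl28 had groups that did not overlap either, and in the fourth, Mrpl47, a protein of the tunnel exit, they did. Mrpl34 was at 75.5, 92.2 and 83.7 FPKM in WT/TAC and 111, 100.1 and 114 FPKM in KO/TAC (log2 fold change 0.37), and did not pass without KO/TAC replicate 1 (0.35) or 3 (0.34). Mrpl28 was at 65.4, 91.9 and 103 FPKM in WT/TAC and 115, 121 and 109 FPKM in KO/TAC (log2 fold change 0.43), and with a library left out it passed only when that was WT/TAC replicate 3, the value being 0.24 without WT/TAC replicate 1, its lowest heart, and 0.39 to 0.48 without the others. Mrpl19, the scarcest of the genes that rose, was at 6.29, 7.50 and 5.92 FPKM in WT/TAC and 9.16, 8.26 and 8.51 FPKM in KO/TAC (log2 fold change 0.38), and passed when WT/TAC replicate 1 (0.35) or 2 (0.47) was left out but not in the other 4 of these fits (0.31 to 0.41). Mrpl47 was at 12.9, 15.7 and 11.1 FPKM in WT/TAC and 18.9, 14.99 and 24.1 FPKM in KO/TAC, where replicate 2 lay below the highest WT/TAC heart. Its log2 fold change was 0.52, and the call was lost without replicate 1 (0.51) or 3 (0.40) of WT/TAC and without replicate 1 (0.52) or 3 (0.35) of KO/TAC.

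In the small subunit the 5 genes that rose were Mrps31, Mrps28, Mrps14, Mrps35 and Mrps15. Mrps31, one of the added proteins, was at 23.3, 22.1 and 19.0 FPKM in replicates 1, 2 and 3 of WT/TAC and at 27.3, 27.9 and 31.3 FPKM in those of KO/TAC. Its mean rose from 21.5 ± 2.20 to 28.8 ± 2.17 FPKM (log2 fold change 0.42 ± 0.12, SE, with an adjusted p of 0.320 by limma). Mrps28, a bacterial homologue, was at 52.5, 50.5 and 49.98 FPKM in WT/TAC and 62.9, 61.4 and 67.6 FPKM in KO/TAC (means 51.0 ± 1.34 and 63.9 ± 3.25, log2 fold change 0.32 ± 0.10, SE). In these genes WT/TAC replicate 1 was the highest and not the lowest WT/TAC heart, the groups did not overlap, and the log2 fold changes without WT/TAC replicate 1 were 0.48 and 0.34. The call was lost only without KO/TAC replicate 3, with values of 0.36 for Mrps31 and 0.28 for Mrps28.
Mrps14, a homologue of a bacterial protein of the head of the subunit, was at 27.5, 40.8 and 30.8 FPKM in WT/TAC and 46.9, 40.1 and 45.5 FPKM in KO/TAC (log2 fold change 0.43). KO/TAC replicate 2 lay just below WT/TAC replicate 2, so its groups overlapped, and it did not pass without replicate 1 (0.31) or 3 (0.39) of WT/TAC or replicate 1 (0.39) or 3 (0.41) of KO/TAC. Mrps35, an added protein, was at 46.0, 69.3 and 62.6 FPKM in WT/TAC and 75.7, 77.1 and 83.2 FPKM in KO/TAC (log2 fold change 0.42, 0.25 without WT/TAC replicate 1), and Mrps15, a bacterial homologue, at 44.4, 41.4 and 36.3 FPKM and 48.3, 47.1 and 55.7 FPKM (0.31, and 0.23 without KO/TAC replicate 3). Their groups did not overlap, but with a library left out Mrps35 passed only when that was WT/TAC replicate 2 (0.25 to 0.47 without the others) and Mrps15 only when it was WT/TAC replicate 1 (0.23 to 0.35 without the others).

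**Figure D3:**
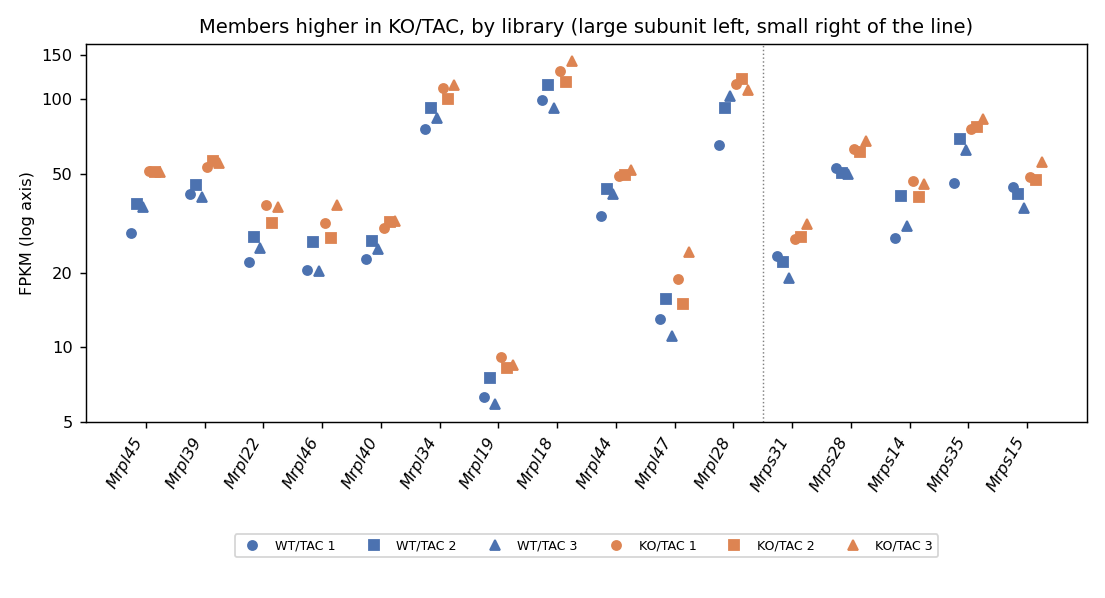
FPKM on a log axis of the 16 genes that were higher in KO/TAC, by library, with blue for WT/TAC, orange for KO/TAC and a marker shape for each replicate number, ordered by p within the large (left) and small (right) subunit. In 14 of the 16 genes every orange point lies above every blue point, and the exceptions are Mrpl47 and Mrps14, where KO/TAC replicate 2 lies below WT/TAC replicate 2.

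How far the genes differed between groups depended on which hearts were counted. Of the 78 genes, WT/TAC replicate 1 held the lowest of the 6 values in 44, where it did so in 22.3% of all tested genes, and WT/TAC replicate 3 in 23. The median deviation from the gene's own mean was -0.27, 0.01 and -0.11 log2 units in WT/TAC replicates 1, 2 and 3 and 0.17, 0.04 and 0.16 in KO/TAC replicates 1, 2 and 3. WT/TAC replicate 2 was thus the heart nearest to the KO/TAC group and KO/TAC replicate 2 the nearest to WT/TAC. WT/TAC replicate 2 was the highest WT/TAC heart in 53 genes, KO/TAC replicate 2 the lowest KO/TAC heart in 51, and every KO/TAC heart exceeded WT/TAC replicate 2 in 32 of 78 genes (41.0%), against 32.4% of all tested genes. For the counts of 53 and 51 no share of all tested genes was taken. The 78 genes together made up 0.769%, 0.926% and 0.848% of the FPKM sum in WT/TAC and 0.993%, 0.932% and 0.993% in KO/TAC, where KO/TAC replicate 2 was only just above WT/TAC replicate 2. The spread within a group was wider in WT/TAC, with a median coefficient of variation of 15.7% against 5.72% in the large subunit and 13.1% against 7.99% in the small subunit.
Without WT/TAC replicate 1 the same number of large subunit genes rose, 11, and 3 of the small subunit, where 7.55% of all tested genes were higher. The medians were then 0.15 and 0.17, against 0.02 over all tested genes. Of the 78 genes 62 were positive, as were 6675 of the 12520 genes tested with all libraries. Not all were the same genes, since Mrpl14, Mrpl50 and Mrpl42 passed without that library but not with it, and Mrpl28, Mrpl44, Mrpl47, Mrps14 and Mrps35 with it but not without. Leaving out WT/TAC replicate 2 gave 19 large and 9 small subunit genes (6.32% of all tested genes were higher), and leaving out WT/TAC replicate 3 gave 10 and 2 (5.20%). The counts were 5 and 2 when KO/TAC replicate 1 was left out (2.92% of all tested genes), and 9 and 6 when it was KO/TAC replicate 2 (3.14%). Fewest rose without KO/TAC replicate 3, 3 of the large and 0 of the small subunit, when 2.07% of all tested genes were higher and 3 members were under an unadjusted p of 0.05 by limma, while the medians were 0.20 and 0.22. With log2 Myl7 as a covariate 7 large and 2 small subunit genes rose, where 4.24% of all tested genes were higher, with medians of 0.15 and 0.18.

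Some markers of heart cells also differed between the groups, in directions that depended on the cell type. The 15 cardiomyocyte markers had a median log2 fold change of 0.26, 3 rose and 0 fell, and their summed level was 44500 to 57300 FPKM in WT/TAC and 63200 to 64500 FPKM in KO/TAC. Of 10 fibroblast markers 8 fell, with a median of -0.85 and a sum of 597 to 960 FPKM in WT/TAC and 395 to 518 FPKM in KO/TAC. Of 10 atrial markers, with a sum of 6260 to 81200 and 121 to 2160 FPKM, 1 fell, and of 6 ventricular markers, with a sum of 492 to 20900 and 22700 to 24700 FPKM, 2 rose, and no defining marker was at 0 in all 6 libraries. Of 10 endothelial, 10 macrophage, 8 smooth muscle and 9 adipocyte markers 0 passed the thresholds and 0 had an unadjusted p under 0.05 by limma, and the summed adipocyte markers were highest in WT/TAC replicate 3, at 348 FPKM against 11.2 to 126 FPKM elsewhere. The medians without WT/TAC replicate 1 were 0.18 for cardiomyocyte, -0.67 for fibroblast, -1.88 for atrial and 0.35 for ventricular markers. The last 2 had been -2.72 and 1.65 with it. In that fit 4 cardiomyocyte, 2 ventricular and 1 endothelial marker were higher. Lower were 7 fibroblast, 1 atrial, 1 smooth muscle and 1 adipocyte marker. The part of these cells in the level of the mitochondrial ribosome was not tested.

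**Figure D4:**
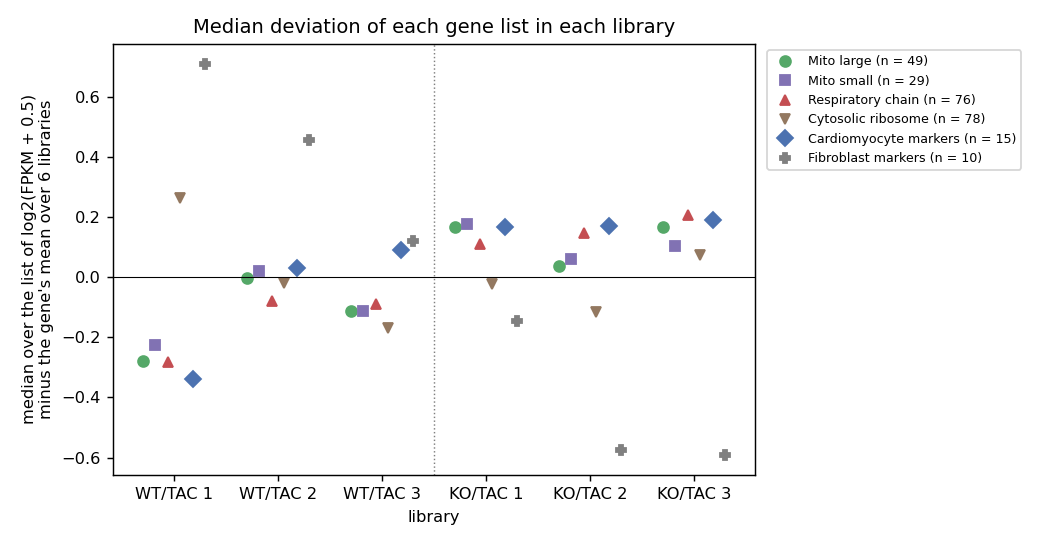
Median over each gene list of the deviation of log2(FPKM + 0.5) from the gene's own mean over 6 libraries, by library, WT/TAC left and KO/TAC right of the dotted line, with a symbol for each list and its number of genes in the key. Both subunits, the respiratory chain and cardiomyocyte markers are lowest in WT/TAC replicate 1, at -0.22 to -0.34, and fibroblast markers are highest there, at 0.71.

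Of the members, 4 had a negative log2 fold change, and none of these passed the thresholds. Mrps6, a bacterial homologue of the small subunit, was at 193, 34.3 and 45.3 FPKM in WT/TAC and 31.8, 40.3 and 35.4 FPKM in KO/TAC. WT/TAC replicate 1 alone was high, and the other WT/TAC hearts overlapped KO/TAC. The log2 fold change was -0.90 (standard error 0.60), and -0.14 without WT/TAC replicate 1. Mrps6 shares exon bases on the same strand with Slc5a3, a myo-inositol transporter, which was at 3.56 FPKM in WT/TAC replicate 1 and at 0.15 to 0.82 FPKM in the other libraries, so reads of these genes may not be told apart. Mrpl52, an added protein, was at 83.9, 65.4 and 58.5 FPKM in WT/TAC and 62.0, 60.3 and 62.4 FPKM in KO/TAC, with WT/TAC replicate 1 again the highest (log2 fold change -0.15, and -0.01 without it). Mrpl20 and Mrps12, bacterial homologues of which the second lies at the decoding centre, had log2 fold changes of -0.03 ± 0.13 and -0.07 ± 0.12 (SE), and that of Mrpl20 was 0.001 after quantile normalization.
Other members had large differences with a wide spread. Mrpl14, which forms a bridge between the subunits, had the highest fitted value of all, 0.65 (standard error 0.28), but did not pass, at 39.1, 70.8 and 86.7 FPKM in WT/TAC and 96.9, 99.0 and 97.4 FPKM in KO/TAC. The 3 KO/TAC hearts were level and above all WT/TAC hearts, which differed among themselves by more than the groups. Mrpl23 had an unadjusted p under 0.05 by limma but was short of the fold, at 79.6, 78.3 and 83.8 FPKM in WT/TAC and 95.02, 98.5 and 94.9 FPKM in KO/TAC.

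The small subunit list holds genes whose products are placed elsewhere in the mammalian ribosome. The mitochondrial ribosome has 3 versions of the protein S18, from Mrps18a, Mrps18b and Mrps18c, and structures place the product of Mrps18a in the large subunit, as they do that of Mrps30. Mrps18a was at 47.7, 115 and 100.03 FPKM in WT/TAC and 117, 98.6 and 99.6 FPKM in KO/TAC, with WT/TAC replicate 1 low by itself. Mrps18b was at 21.6, 39.0 and 29.8 FPKM in WT/TAC and 40.2, 28.9 and 33.4 FPKM in KO/TAC, and Mrps18c at 39.3, 54.0 and 34.8 and at 58.7, 42.7 and 65.2 FPKM. The groups overlapped in all 3 and none passed the thresholds, with log2 fold changes of 0.35, 0.21 and 0.38 (standard errors 0.32, 0.23 and 0.22). Without WT/TAC replicate 1 the value was -0.03 for Mrps18a and -0.01 for Mrps18b. Mrps23, next to highest in the small subunit, had a log2 fold change of 0.05 that was -0.08 without the same library. Mrps30 had 0.22 (standard error 0.15). Mrps36, which is also known as a component of the oxoglutarate dehydrogenase complex, was at 109, 104 and 110.2 FPKM in WT/TAC and 113, 124 and 118 FPKM in KO/TAC, with groups that did not overlap but a difference of 0.14. With Mrps18a and Mrps30 counted in the large subunit and Mrps36 left out, 11 of 51 and 5 of 26 genes rose.

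Members of bacterial descent and those added in mitochondria were counted apart. Of 45 bacterial homologues 9 rose with a median log2 fold change of 0.25, and of 31 proteins added in mitochondria 7 with a median of 0.24. Every KO/TAC heart was above every WT/TAC heart in 37.8% of the first and 25.8% of the second, and without WT/TAC replicate 1 the medians were 0.21 and 0.13. The difference between these classes was not tested, and 2 members, Mrpl55 and Mrps36, were placed in neither. Of the S18 genes, Mrps18c was counted with the bacterial homologues and Mrps18a and Mrps18b with the added proteins. The members with little difference came from both classes. Mrpl49, added in mitochondria, was at 30.2, 31.2 and 32.1 FPKM in WT/TAC and 33.4, 29.8 and 30.8 FPKM in KO/TAC, and Mrpl17, a bacterial homologue, at 6.68, 7.33 and 7.42 FPKM and 7.82, 7.52 and 7.42 FPKM, with log2 fold changes of 0.00 and 0.08.

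Other genes of mitochondrial translation had like medians. Of 5 ribosomal proteins with other names 1 rose, and the median was 0.24. This was Ptcd3, which is also called Mrps39 and sits at the mRNA entrance, at 34.4, 49.2 and 37.5 FPKM in WT/TAC and 57.4, 52.5 and 65.0 FPKM in KO/TAC (log2 fold change 0.54). Its groups did not overlap, though KO/TAC replicate 2 came close to WT/TAC replicate 2.
Of 18 translation factors 5 rose and 0 fell, with a median of 0.30. Mtrf1l, the release factor that ends most mitochondrial proteins, was at 1.92, 2.15 and 2.01 FPKM in WT/TAC and 3.30, 3.21 and 3.47 FPKM in KO/TAC (log2 fold change 0.60 ± 0.13, SE), well apart in every heart. Mtrf1, a related release factor, rose from 4.03 ± 0.594 to 5.77 ± 0.679 FPKM (SD, n = 3) and Mtres1, a factor that acts when translation is stressed, from 46.3, 62.4 and 41.4 FPKM in WT/TAC to 71.95, 59.7 and 77.8 FPKM in KO/TAC, where its groups overlapped. Mtrf1l kept the call in all 6 fits that each left out a library, Mtrf1 in 3 and Mtres1 in 2. The median of the 18 factors was 0.18 without WT/TAC replicate 1. In that fit 3 of them rose but not Mtres1, where 7.55% of all tested genes were higher. Of 28 assembly factors and RNA modifying enzymes 6 rose and 0 fell, with a median of 0.23. They include Mterf4, which brings a methyltransferase to the ribosomal RNA (7.42 ± 0.698 to 10.3 ± 0.876 FPKM), Malsu1, which binds the protein of Mrpl14 and keeps the subunits apart (16.2 ± 1.67 to 21.8 ± 2.12 FPKM), and Rpusd4, a pseudouridine synthase of the ribosomal RNA (7.57 ± 1.02 to 10.3 ± 0.577 FPKM).
Of 17 mitochondrial tRNA synthetases 1 rose, Sars2, the enzyme for serine (6.67 ± 0.912 to 8.76 ± 0.448 FPKM), although the median was 0.25 and all 17 were positive. Sars2 kept the call in 2 of the 6 fits that each left out a library. When that was WT/TAC replicate 1, 0 synthetases rose and the median was 0.125. Of 12 genes for transcription and replication of mitochondrial DNA 3 rose, with a median of 0.27. These were Tefm, the elongation factor of the mitochondrial polymerase, from 12.1 ± 0.962 to 16.3 ± 2.05 FPKM, Mterf2, a protein that binds mitochondrial DNA, at 5.13 to 9.27 FPKM in WT/TAC hearts and 9.80 to 11.9 FPKM in KO/TAC hearts, and Tfam, which packages the DNA and starts its transcription, from 16.0 ± 2.40 to 22.2 ± 4.86 FPKM. With a library left out, Tefm and Mterf2 each kept the call in 3 of 6 fits and Tfam in 2. Tfam did not pass without WT/TAC replicate 1, where the median of the 12 genes was 0.24. Of 14 nuclear regulators of mitochondrial genes 0 rose and 2 fell, with a median of 0.07 and no other gene under an unadjusted p of 0.05 by limma. Pprc1, a coactivator of the PGC-1 family, fell from 6.57 ± 0.653 to 4.86 ± 0.606 FPKM, and Myc from 4.05 ± 2.20 to 1.27 ± 0.266 FPKM, with WT/TAC replicate 1, at 1.55 FPKM, inside the KO/TAC range. Ppargc1a, which encodes the coactivator PGC-1α and was named after its values were seen, did not pass, at 10.5, 8.94 and 9.97 FPKM in WT/TAC and 11.1, 13.5 and 12.04 FPKM in KO/TAC (log2 fold change 0.30 ± 0.13, SE). Its groups did not overlap, and it passed without WT/TAC replicate 1 (0.35). The study's own list of differing genes gives Ppargc1a as up in KO/TAC, so the miss is by limma.

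The respiratory chain, which the products of this ribosome enter, and the ribosome of the cytosol were set beside the members. Of 76 nuclear genes of the respiratory chain 28 (36.8%) rose and 0 fell, the median was 0.32 and all 76 were positive, so that both the share and the median were above those of the members. These calls depended on the hearts counted too. Only 5 (6.58%) rose without KO/TAC replicate 3, against 3 members (3.85%) and 2.07% of all tested genes. With log2 Myl7 as a covariate 14 rose, against 9 members and 4.24% of all tested genes. Ndufs4, a subunit of complex I, rose, at 86.6 to 114 FPKM in WT/TAC hearts and 135 to 166 FPKM in KO/TAC hearts, as did Ndufv2 of the same complex, from 262 ± 24.0 to 366 ± 27.8 FPKM, and Atp5pb, of the ATP synthase, from 545 ± 68.2 to 795 ± 83.3 FPKM. Of 78 genes for cytosolic ribosomal proteins 0 rose and 0 fell by limma, with 0 under an unadjusted p of 0.05, 23 positive and a median of -0.04. The study's own list of differing genes gives Rpl13a, 1 of these 78, as down in KO/TAC. Its log2 fold change here was -0.30 ± 0.13 (SE), with every KO/TAC heart below every WT/TAC heart. The study's list also gives Rpl3l as up, a gene that the choice of symbols left out of the 78. The cytosolic genes were highest in WT/TAC replicate 1, with a median deviation of 0.26, where the mitochondrial ones were lowest. Without WT/TAC replicate 1 the medians were 0.07 in the cytosolic ribosome, 0.25 in the respiratory chain and 0.15 and 0.17 in the members.

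**Figure D5:**
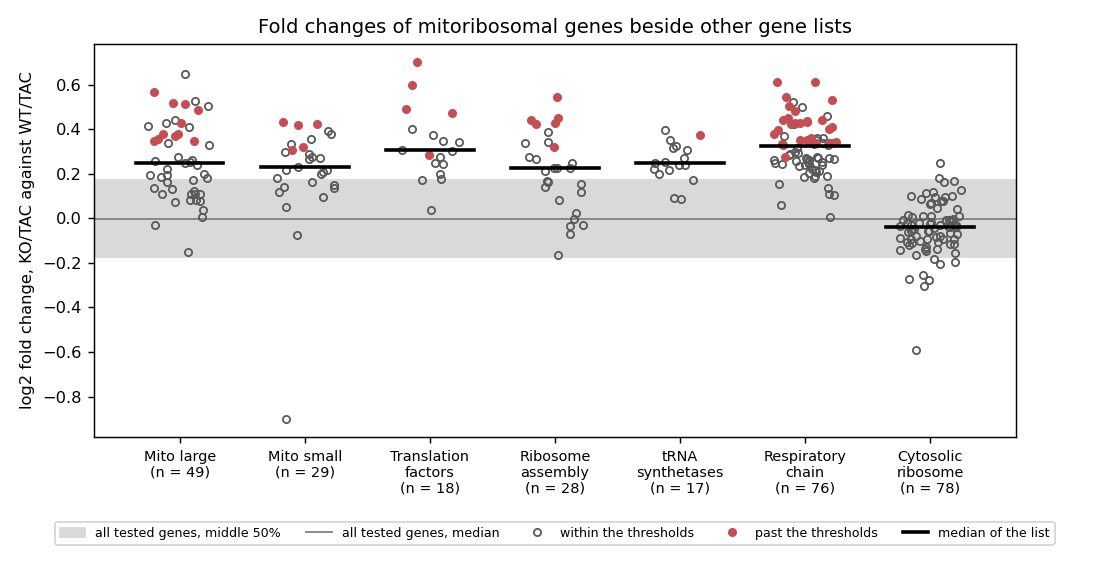
Log2 fold change of KO/TAC against WT/TAC for each gene of 7 lists, filled where the gene passed the thresholds, with a bar at the median of the list and grey from the lower to the upper quartile of all tested genes. The medians of the mitochondrial lists lie at 0.23 to 0.32 and that of the cytosolic ribosome at -0.04, and the lowest point, at -0.90, is Mrps6.

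A site for miR-27 was no more common in these genes than elsewhere. The letters ACTGTGA, which pair with the seed shown at the start, were looked for in 3′ UTRs, the longest that GENCODE M21 (GRCm38) gives a gene, and 11 of 78 members (14.1%) held them against 18.9% of 12321 tested genes with a UTR. The UTRs of the members are shorter, with a median of 492 bases against 1354. The 11 are Mrpl12, Mrpl35, Mrpl47, Mrps5, Mrps9, Mrps12, Mrps17, Mrps25, Mrps26, Mrps31 and Mrps35. Of the 16 genes that rose, 3 held a site and 13 did not, and the median log2 fold change was 0.29 in members with a site and 0.24 in those without. Over all tested genes with a UTR, 117 of those that were higher held a site and 483 did not, with medians of 0.00 and -0.01. The 3 with a site that rose are shown with the match in capitals, as the RNA reads in DNA letters. They lie at chr8:22429511-22429532 (plus strand) for Mrps31, at chr6:147072700-147072721 (plus strand) for Mrps35, and at chr3:32727278-32727299 and chr3:32725428-32725449 (minus strand) for Mrpl47.
Mrps31: gactaacataACTGTGAaatta
Mrps35: aagaaccagcACTGTGAtccag
Mrpl47 site a: ctagtgttaaACTGTGAggggg
Mrpl47 site b: aatatggtgcACTGTGAgatga
Only the site of Mrps31 is followed by A, a base that miRNA complexes favour there. A match describes the letters and not regulation. Mrps31 and Mrps35 were among the genes whose groups did not overlap and Mrpl47 was not, and Mrps12, with a site, had a log2 fold change of -0.07.

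Some members share exon bases with a neighbour, and the counting is not stated to use strand, although the library kit keeps it. In GENCODE M21 28 members overlap a gene on the opposite strand and 8 one on the same strand, while 45 overlap none. Of the 16 genes that rose, 11 overlap none and 5 overlap a gene on the opposite strand, namely Mrpl18 with Tcp1, Mrpl19 with Gcfc2, Mrpl44 with Wdfy1, Mrpl47 with Actl6a and Ndufb5, and Mrpl46 with another member, Mrps11. Mrps11 was at 18.5, 21.7 and 21.2 FPKM in WT/TAC and 24.7, 20.9 and 22.7 FPKM in KO/TAC and did not pass the thresholds (log2 fold change 0.15).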

How the data were processed

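Heart RNA of 3 WT/TAC and 3 KO/TAC mice was sequenced by the authors after a stranded KAPA library preparation. The authors deposited FPKM to 2 decimals, in a file per heart, for 17570 Entrez Gene IDs, of which 17441 matched a RefSeq symbol. The submitters' processing notes name HISAT2 2.0.5, StringTie 1.3.3 and builds of both human and mouse with no role, and for filters and use of strand the answer was not given in the sources used here, so no coordinates were taken from the files. FPKM are not counts, so no count model was used. The 12520 genes that averaged 0.5 FPKM or more entered limma 3.58.1 as log2(FPKM + 0.5) (R 4.3.3, lmFit, eBayes with trend, genotype only), two-sided, with Benjamini-Hochberg adjustment over all tested genes. Fold changes are on that scale, which understates changes of low genes. Summaries used Python 3.11.15, pandas 2.3.3 and numpy 2.4.6, and figures matplotlib 3.10.9. The fit was tested on simulated data in 3 rounds with 200 of 12520 genes changed, where 4.94% of unchanged genes, 93.7% of genes changed by a log2 of 1 and 57.0% of those changed by 0.4 were called, which says nothing of genes that vary together. The members, lists and rules were chosen with earlier results of these data known. Named are members past the thresholds, those highest and lowest in level, those with negative values and smallest p, the Mrps18 genes and Mrps30, and up to 3 called genes of each other list each way; Mrpl14, Mrpl23, Mrpl49 and Mrps11 and the 3 factors of the motifs were chosen after their values were seen. Ancestry and subunit classes were written by hand. The alternatives were other pseudocounts, filters, scalings and tests, a replicate number as a term, Myl7 as a covariate, other subunit classes and each library left out, and, added after seeing the data, only the 3 libraries with Myl7 under 1 FPKM.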

Additional observations from a re-analysis of the deposited data

How the results depend on the processing

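The direction of both subunits' medians and of every called member held under all alternatives, but calls did not. Of 288 alternative values of the 16 called members, 198 kept the call, 90 lost it and 0 reversed. In every alternative 0 members were lower and 0 had an adjusted p under 0.05, with a lowest of 0.157 without WT/TAC replicate 1. With a library left out, the large subunit count of 11 ran from 3 to 19, its median from 0.15 to 0.34, the small subunit count of 5 from 0 to 9, its median from 0.17 to 0.34, members with groups apart from 27 to 53 (26 with all libraries, where 18.3% of all tested genes were apart, and 22.1% to 34.2% with a library left out) and calls among all genes from 626 to 1973 (1387), each highest without WT/TAC replicate 2. The 2-sample tests on log values and on FPKM each gave 2 small subunit genes (3.63% and 4.01% of tested genes were higher), the Myl7 covariate 7 large and 2 small (4.24%). The 3 libraries with Myl7 under 1 FPKM, with 1 WT/TAC heart, gave 6 and 2 (6.64% of tested genes were higher), a large subunit median of 0.13 and 63 members apart, where 74.5% of all tested genes were apart, so that this count is not read. Hearts with equal replicate numbers did not deviate from their group means together (correlations of -0.29, -0.56 and -0.35 for numbers 1, 2 and 3). The deviations sum to 0 within each group, so these correlations depend on each other, and whether equal numbers share a batch was not tested. With replicate number as a block 4 large and 0 small subunit genes (2.84% of tested genes were higher) and 879 of all genes passed, with 4 members under an unadjusted p of 0.05 by limma. Reversed values, none of them called, were Mrpl20 by quantile normalization (0.001), and in the 3 libraries Mrps12 (0.112), Mrps18a (-0.089), Mrps18b (-0.088) and Mrps23 (-0.227), with the Myl7 covariate Mrps18b (-0.037) and Mrps23 (-0.152). With a library left out Mrpl20 ran from -0.123 to 0.035, Mrps18a from -0.033 to 0.599, Mrps18b from -0.009 to 0.41 and Mrps23 from -0.082 to 0.237, the lowest of the last 3 without WT/TAC replicate 1. The cause of these shifts was not tested. Without counts, sampling error cannot be separated from the spread between hearts.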

Other observations

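Lactb, a mitochondrial protease that once carried the symbol Mrpl56 and so was not a member, was at 7.31, 10.3 and 8.19 FPKM in WT/TAC and 12.2, 11.2 and 11.96 FPKM in KO/TAC. Its groups did not overlap, and it rose at the study's thresholds, from 8.61 ± 1.55 to 11.8 ± 0.503 FPKM (SD, n = 3, log2 fold change 0.44). It was chosen after its values were seen.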
